A study of Drosophila melanogaster with 5 samples.

Results

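Ribosome footprints of small polysomes were compared with those of large polysomes in the initial Poly-Ribo-Seq experiment on S2 cells, a Drosophila line of embryonic origin with blood-cell features. Small polysomes are mRNAs that carry 2 to 6 ribosomes and large polysomes carry 7 or more, and both were taken from sucrose gradients of cytoplasm of cells grown in Schneider's medium with serum, arrested with cycloheximide and given no other treatment, before footprinting with RNase I. Of 13967 genes listed, 13842 had values, and the 5723 genes whose longest coding sequence (CDS) reached 10 RPKM or more in either library were kept. RPKM is the footprint density, scaled to the length of the CDS and to the mapped reads of the library. Each fraction was sequenced as 1 library, so that no difference between the fractions has a replicate check and no p-value is given. The other samples, also 1 each, are all polysomes, an extensive library of small polysomes from a repeat of the experiment, and total cytoplasmic mRNA.

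A short CDS can hold only a few ribosomes, whereas a long CDS that is initiated often fills with many. The fraction in which an mRNA sediments therefore depends on how long its CDS is and on how densely ribosomes load it. Features that lower initiation at the main CDS are known to shift an mRNA to lighter polysomes, among them upstream ORFs (uORFs, short reading frames in the 5′ leader). To set length aside, the log2 ratio of small over large RPKM, with 1 RPKM added to each, was taken relative to the median of CDSs of like length in 20 bins of equal size. This length-adjusted log2 ratio is 0 for a CDS at its expectation, and a CDS is called above or below expectation here at 1 or more, or -1 or less, which is 2-fold.

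By these limits 818 CDSs (14.3%) lay above and 642 (11.2%) lay below the ratio expected for their length. The only available measure of replicate spread is that between both small polysome libraries: after the same adjustment for length, the log2 ratio of the extensive over the initial library had an SD of 0.50, and 95% of CDSs fell between -1.0 and 1.01. The length-adjusted small over large ratio had an SD of 0.91, with 795 CDSs above and 642 below that range. Large polysomes have no second library, and their contribution to the spread was not measured. Of the members, 4399 reached 10 RPKM in both libraries, 476 in small polysomes only and 848 in large polysomes only. A CDS that entered through only 1 library had to differ between them, and such CDSs make up 294 of those above and 175 of those below. Just inside the limit stood pim with 10.0 RPKM in small and 6.35 RPKM in large polysomes, and just outside it CG4707 with 4.14 RPKM in small and 9.99 RPKM in large polysomes.

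The small polysome library held 2793741 reads on the members and the large polysome library 1862932. Of the members, 5199 had 100 or more reads over both libraries, and single genes are named from these unless a gene list names them. The cells were checked against markers: of 9 blood-cell markers 8 had values and 7 reached 1 RPKM in mRNA (Pxn, a peroxidase of the extracellular matrix, stood at 327 RPKM), Hml stood at 0.019 RPKM, and the 3 fat-body markers were at 0. Markers of other cell types were not all absent: in mRNA the germ-line gene bam stood at 26.2 RPKM, the neuronal gene elav at 1.66 RPKM and the muscle genes up and Act88F at 2.02 and 1.75 RPKM, while vas was at 0.

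The expectation itself fell with length. The median log2 ratio was 2.03 in the shortest bin (48 to 357 nt; 95% order-statistic interval 1.89 to 2.16, n = 287), -0.07 between 915 and 1014 nt (-0.26 to 0.18, n = 287), -0.95 between 1509 and 1650 nt and -1.22 above 5055 nt (-1.32 to -1.13, n = 286). It moved little beyond about 1509 nt. The scatter around the expectation did not follow length in one direction. Its SD was 1.16 in the shortest bin, 0.86 between 357 and 474 nt, 1.12 between 1125 and 1248 nt and 0.51 in the longest. The SD of the difference between both small polysome libraries was 0.74, 0.58, 0.49 and 0.37 in the same bins. CDSs above expectation were most frequent between 1125 and 1248 nt (22.7%) and least frequent in the longest bin (3.85%).

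**Figure D1:**
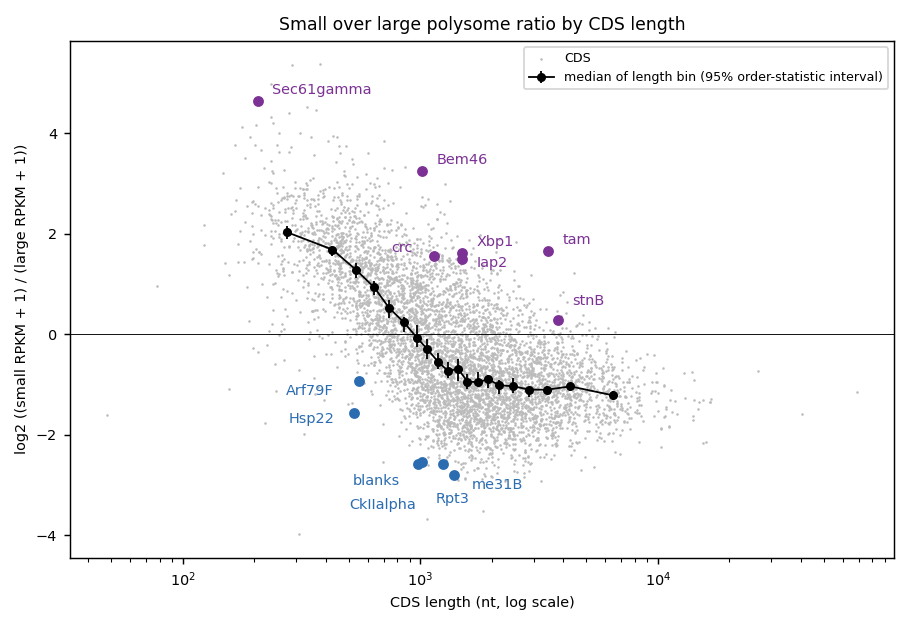
Log2 ratio of small over large polysome RPKM (1 RPKM added to each) against CDS length in nt on a log scale, with 1 grey point per CDS (5723) and black points for the median of each of 20 length bins with its 95% order-statistic interval. The median falls from 2.03 in the shortest bin to -1.22 in the longest; purple names lie above and blue names below the median of their bin.

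The 15 named CDSs farthest above expectation ranged from 207 to 3438 nt. Among them Bem46, beta4GalNAcTA, fidipidine, Dgkepsilon, tam, Sec61gamma, Pop2, lkb1, PGRP-LA and Sxl reached 10 RPKM in small polysomes only. These entered through the library where they are high, and so had to differ between the libraries. Bem46, of the alpha/beta hydrolase family (chromosome 2L, 2988245 to 2989511, Release 5 coordinates, 338 aa), had 26.1 RPKM (146 reads) in small and 1.87 RPKM (5 reads) in large polysomes. Its length-adjusted log2 ratio was 3.54 (95% counting interval 2.60 to 4.40), the highest of all named genes with 100 reads. beta4GalNAcTA, an N-acetylgalactosaminyltransferase, had 24.8 RPKM in small and 3.77 RPKM in large polysomes, with an adjusted ratio of 2.99 (2.28 to 3.71). The diacylglycerol kinase Dgkepsilon had 33.2 RPKM in small and 8.31 RPKM in large polysomes (2.82, interval 2.36 to 3.31). All 3 thus had a density in small polysomes several times that in large polysomes. At these lengths the median CDS was denser in large polysomes by the deposited RPKM. Reads on CDSs as the divisor would add 0.48 to every log2 ratio, more than the expected -0.30 at the length of Bem46 lies below 0.

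The DNA photolyase phr had 65.5 RPKM in small and 19.4 RPKM in large polysomes (adjusted log2 ratio 2.66, interval 2.34 to 2.99). Pbp49, a subunit of the complex that activates small nuclear RNA genes, had 55.5 RPKM in small and 12.1 RPKM in large polysomes (2.66, 2.19 to 3.15). Atg14, a subunit of the lipid kinase complex that starts autophagosomes, had 68.3 RPKM in small and 20.9 RPKM in large polysomes (2.61, 2.29 to 2.94). Sec61gamma, the smallest of the translocon subunits at 207 nt, had 254 RPKM (289 reads) in small and 9.20 RPKM (5 reads) in large polysomes, and with 2.61 (1.45 to 3.98) was the only CDS under 1000 nt among the 15 highest named genes. The other members of that group were fidipidine (2.93), the mitochondrial DNA polymerase tam (2.76), the deadenylase subunit Pop2 (2.49), the signal peptide peptidase-like protease SppL (2.46), the kinase lkb1 (2.41), the peptidoglycan receptor PGRP-LA (2.39), the ubiquitin ligase Iap2 (2.31) and the sex-determination splicing factor Sxl (2.29). Among genes known by number only, CG12034 (3.38), CG7168 (3.33), CG33671 (3.14), CG31975 (3.13) and CG14881 (3.10) were highest. All of these reached 10 RPKM in small polysomes only, and CG7168 rests on 2 reads in large polysomes.

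The 15 named CDSs farthest below expectation ranged from 225 to 1998 nt. The lowest was blanks, a double-stranded RNA-binding protein (3L, 5490806 to 5491948, 324 aa), which had 85.8 RPKM (460 reads) in small and 517 RPKM (1324 reads) in large polysomes. The expected ratio at its length is close to even, and its adjusted log2 ratio was -2.51 (-2.66 to -2.36). CkIIalpha, the catalytic subunit of casein kinase II, had 21.0 RPKM in small and 127 RPKM in large polysomes (-2.47, interval -2.77 to -2.17), and the stress kinase p38c had 4.75 RPKM in small and 34.1 RPKM in large polysomes (-2.31, -2.86 to -1.77).

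Several of the lowest CDSs were short, and their density was high in large polysomes even though CDSs of that length were mostly denser in small ones. Arf79F, an Arf GTPase of the Golgi (549 nt), had 260 RPKM in small and 495 RPKM in large polysomes, where the expected ratio was 2.44 in favour of small polysomes (adjusted log2 ratio -2.21, interval -2.36 to -2.06). The GTPase Rac2 (579 nt) had 48.4 RPKM in small and 96.1 RPKM in large polysomes (-2.26), and the spindle checkpoint protein mad2 (624 nt) had 46.9 RPKM in small and 109 RPKM in large polysomes (-2.13). The cyclin-dependent kinase subunit Cks30A, at 225 nt, had 67.1 RPKM in small and 77.9 RPKM in large polysomes (-2.24). The remaining named genes were me31B, an RNA helicase that represses translation (-2.11), the Mediator subunit MED10 (-2.08), the proteasome ATPase Rpt3 (-2.02), the lactate dehydrogenase ImpL3 (-2.01), Kr-h2 (-1.99), the nucleoporin Nup43 (-1.98), the arginyl-tRNA synthetase Aats-arg (-1.94) and RpA-70, which binds single-stranded DNA (-1.93). Among genes known by number, CG43954 (-2.56), CG17337 (-2.23), CG6937 (-2.14), CG33981 (-2.14) and CG11436 (-2.13) were lowest. Of the lowest genes named here, p38c, Aats-arg and CG11436 reached 10 RPKM in large polysomes only and likewise had to differ.

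With the extensive library in place of the initial small library, over the same large library, the adjusted ratio was 3.03 for Bem46, 2.81 for beta4GalNAcTA, 2.75 for Atg14 and 1.31 for PGRP-LA. It was -2.58 for blanks, -2.18 for CkIIalpha, -1.42 for Arf79F and -1.03 for Nup43. These values, for the same CDSs and length bins, share the large polysome library with those above and are no second measurement of the ratio. PGRP-LA depended on the CDS taken: with the shortest CDS of each gene in place of the longest its value was 0.43.

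**Figure D2:**
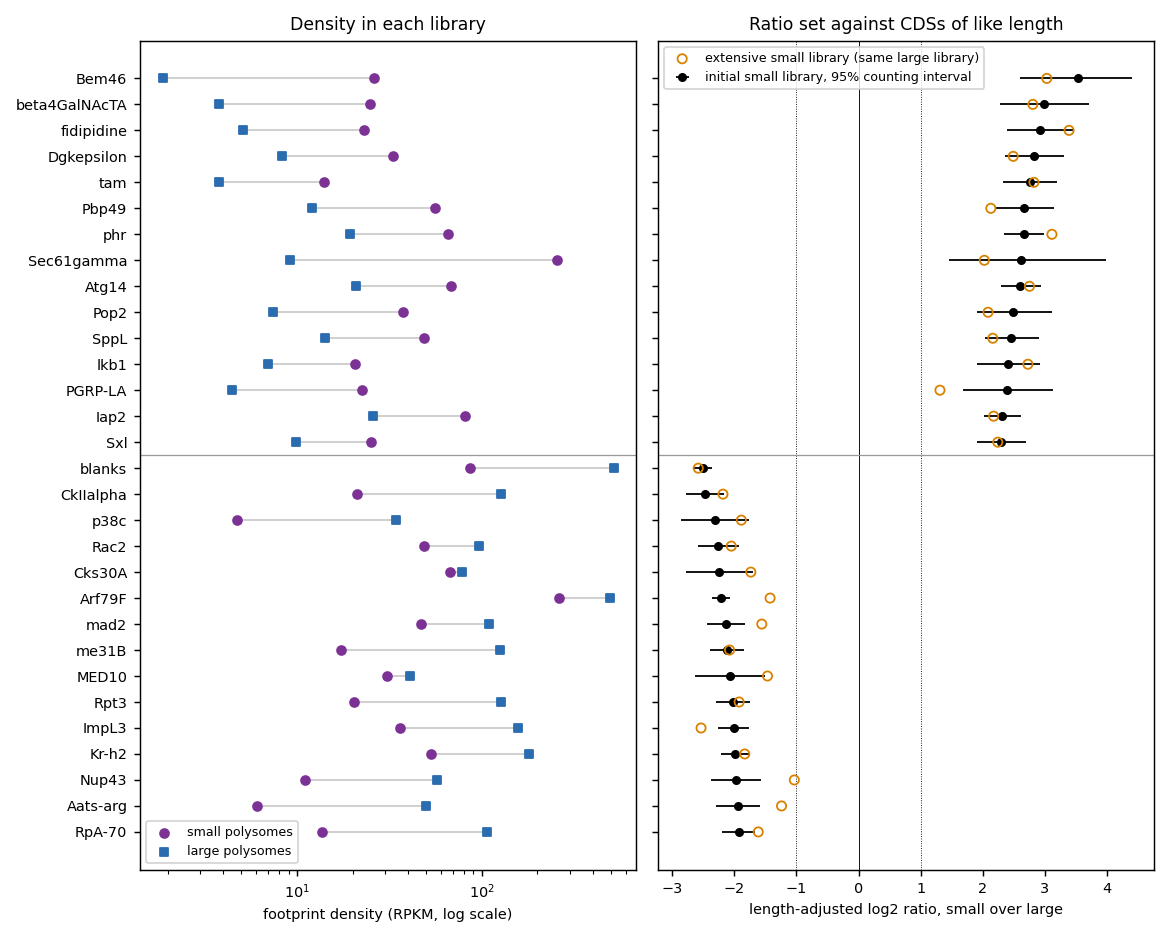
The 15 highest and 15 lowest named genes with 100 or more reads: left, RPKM on a log scale in small (purple circles) and large polysomes (blue squares); right, the length-adjusted log2 ratio with its 95% counting interval (black) and the value with the extensive small library (open orange circles), dotted lines marking 2-fold. Values run from 3.54 for Bem46 to 2.29 for Sxl above the grey line and from -2.51 for blanks to -1.93 for RpA-70 below it.

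With the initial small library, the most densely read CDSs of both libraries all stayed within 2-fold of expectation. In small polysomes these were Nplp2, a neuropeptide-like precursor (5129.7 RPKM in small and 1874 RPKM in large polysomes, adjusted log2 ratio -0.58), the nucleoside diphosphate kinase awd (0.85), the ribosomal proteins RpS23 (0.19) and RpL35 (0.07) and the actin-severing protein tsr (-0.59). In large polysomes they were the elongation factors Ef1alpha48D (3493 RPKM in small and 8025 RPKM in large polysomes, -0.51) and Ef2b (0.10), the actin Act5C (-0.96), alphaTub84B (-0.27) and the chromatin factor Df31 (-0.62). With the extensive library Act5C stood at -1.28, alphaTub84B at -1.58 and Df31 at -1.005, all below expectation, and the others stayed within 2-fold.

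Gene lists were compared by how many members were called and by their median, beside 14.3% above, 11.2% below and a median of 0 over all 5723 CDSs. Some called members named below entered through 1 library only and so had to differ between the libraries. Rab23, mRpL30 and br reached 10 RPKM in small polysomes only. Hsp22, Ef1alpha100E, PGRP-LF and Cdk9 reached 10 RPKM in large polysomes only. Protein-folding machines and the proteasome stood lowest of the lists drawn up from gene families and pathways. The heat shock proteins and cognates, chaperones that hold and fold other proteins, had a median of -1.22, with 9 of 14 measured members below and 0 above. Hsc70-4, the main cytosolic Hsp70 cognate, had 396 RPKM in small and 2035 RPKM in large polysomes (adjusted log2 ratio -1.46, interval -1.51 to -1.41). The co-chaperone Hop had 88.8 RPKM in small and 433 RPKM in large polysomes (-1.59). Hsp22 was lowest at -2.85 on 13 reads in small and 21 reads in large polysomes, and the mitochondrial Hsp90 Trap1 was highest at 0.07. The mitochondrial chaperones Hsp60 (-1.15) and Hsc70-5 (-1.09) were below as well, so that cytosolic, ER and mitochondrial chaperones were all among the 9.

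The CCT chaperonin, which folds actin and tubulin, had a median of -1.14 with 4 of 6 subunits below, the lowest being Tcp-1zeta, followed by Cctgamma (-1.24), Tcp-1eta (-1.21) and T-cp1 (-1.07). Of 12 actins and tubulins 6 lay below and 0 above (median -0.98), among them Act42A with 522 RPKM in small and 1987 RPKM in large polysomes (-1.37) and betaTub56D with 614 RPKM in small and 2170 RPKM in large polysomes (-1.13), and alphaTub84D was highest at 0.03. Actins and tubulins are close copies of each other, and only reads with a unique match were kept, which can lower the density of conserved stretches in both libraries. ER chaperones and folding enzymes had 2 of 8 below, Hsc70-3 (-1.37) and the disulfide isomerase ERp60 (-1.33), and a median of -0.84 (-0.46 with the extensive library).

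Of 33 proteasome subunits 16 lay below and 0 above, with a median of -0.997. Within the complex the values differed by part. The 6 base ATPases Rpt1 to Rpt6 had a median of -1.66 and 4 lay below, and the 12 non-ATPase subunits of the regulatory particle had a median of -1.19 with 9 below. In the catalytic core, the 7 alpha subunits had a median of -0.54 with 2 below and the 7 beta subunits a median of -0.65 with 1 below. The core moved most with the extensive library, to -1.05 with 4 below for alpha and -0.95 with 3 below for beta subunits, while the base stood at -1.87 and the non-ATPase subunits at -1.41. Rpt3 was lowest, with 20.4 RPKM in small and 126 RPKM in large polysomes. Rpt6R, a copy of Rpt6, was the only member over 0 (0.81, with 27.6 RPKM in small and 22.9 RPKM in large polysomes), whereas Rpt6 itself had 70.9 RPKM in small and 320 RPKM in large polysomes (-1.61).

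The vacuolar ATPase, which acidifies endosomes and lysosomes, had 6 of 18 subunits below and 0 above (median -0.87, and -0.54 with the extensive library). Its membrane-ring subunit Vha16-1, at 480 nt, had 1119 RPKM in small and 1224 RPKM in large polysomes (-1.41), while Vha13 (-0.04) and VhaM9.7-b (0.39) lay at their expectation. Basement membrane and matrix proteins had 5 of 12 below, including the laminin chains LanB1 (-1.42) and LanB2 (-1.41), and 1 above, the collagen-modifying enzyme Plod (1.05). Glycolytic enzymes had a median of -0.70 (-1.23 with the extensive library) with 2 of 12 below, ImpL3 and Gapdh2 (-1.16), and Tpi was the only member over 0 (0.58). Of 20 aminoacyl-tRNA synthetases, which charge tRNAs, 5 were below (Aats-arg, Aats-ala, Aats-cys, Aats-val and Aats-gly, -1.94 to -1.10) and 1 was above, Aats-phe. With the extensive library 3 were below, Aats-cys standing at -0.87 and Aats-val at -0.83. Aats-cys reached 10 RPKM in large polysomes only.

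These lists differ from the rest in more than the ratio. Median mRNA density was 205 RPKM for the heat shock list, 292 RPKM for CCT and 167 RPKM for the proteasome, against 33.4 RPKM over all members, and the length-adjusted ratio was lower for abundant mRNAs, as described with the other properties. With the expectation taken within joint classes of length and mRNA density, the medians were -0.87 for the heat shock list, -0.77 for CCT, -0.70 for the proteasome, -0.73 for actins and tubulins and -0.68 for the vacuolar ATPase, and -0.26 for glycolytic enzymes. For aminoacyl-tRNA synthetases the median was -0.17 within these joint classes, against -0.465 with length alone. The rest of what sets these lists apart was not tested.

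**Figure D3:**
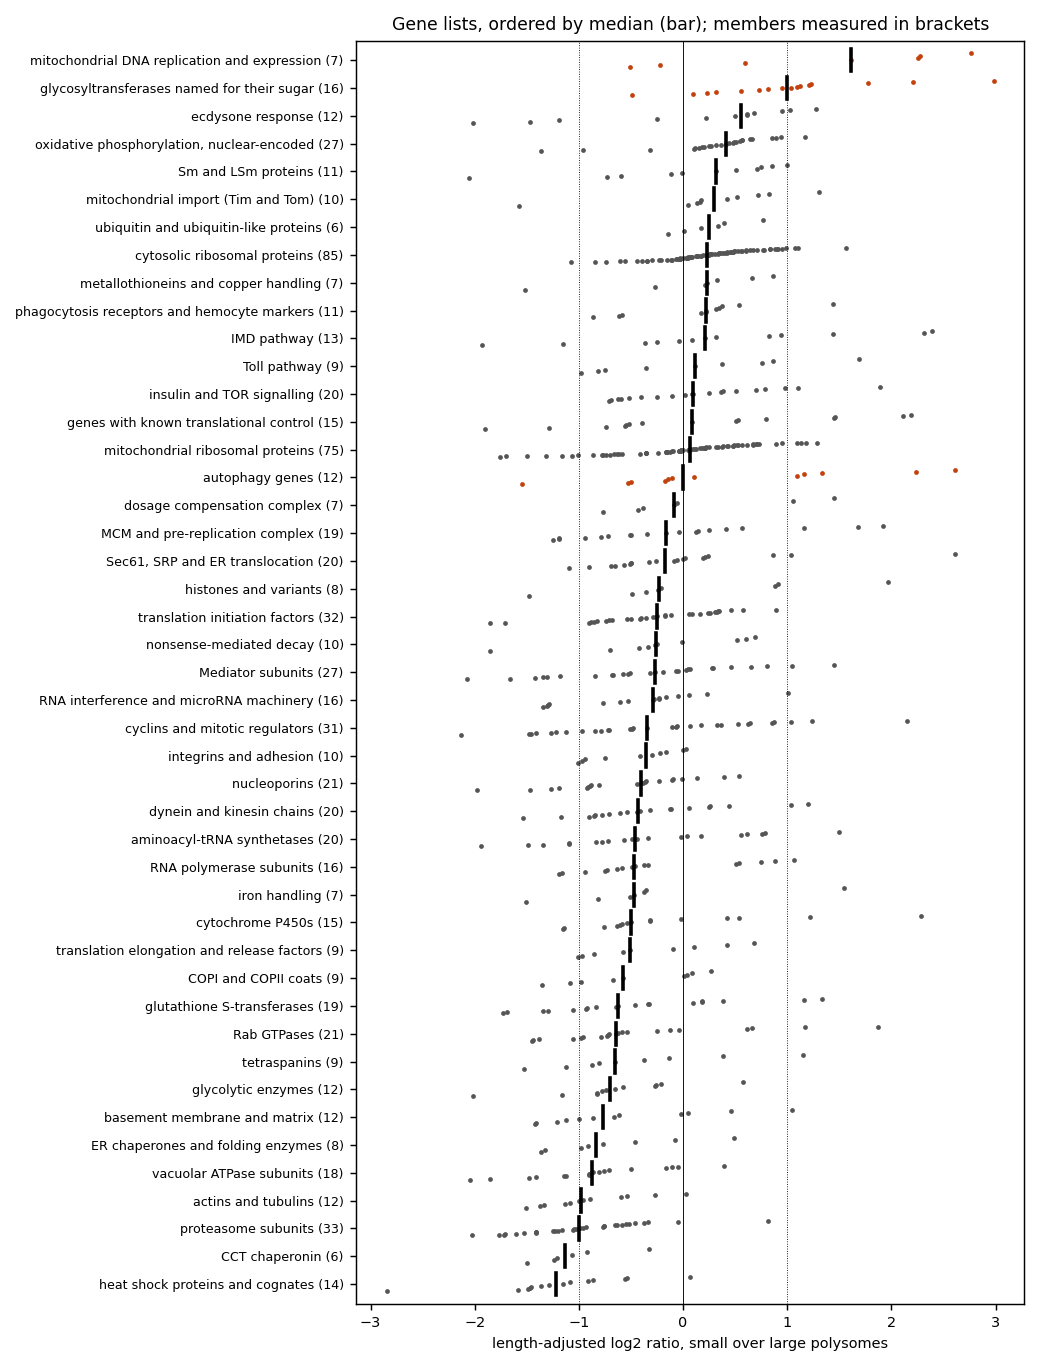
Length-adjusted log2 ratio of each measured member (points) of 45 gene lists, ordered by their median (black bars), with the number measured in brackets and dotted lines at 2-fold. Lists in grey were drawn up from families and pathways, and the 3 lists in orange were chosen after values of single genes were seen; medians run from -1.22 for heat shock proteins to 0.56 for the ecdysone response among the grey lists.

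The Rab GTPases gave mixed values around a low median. Of 21 Rab proteins, which direct vesicle traffic, 4 lay below (Rab14, Rab30, Rab1 and Rab2, -1.45 to -1.06) and 2 above, Rab23 (41.9 RPKM in small and 8.97 RPKM in large polysomes, 1.87) and Rab40 (1.17), with a median of -0.65 (-0.35 with the extensive library). With the extensive small library, Rab14 stood at 0.02, Rab1 at -0.39, Rab40 at 0.68 and Rab30 at -0.96.

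Ribosomal proteins and the respiratory chain, whose CDSs are mostly short, lay close to the ratio of other CDSs of their length. Of 85 cytosolic ribosomal proteins 81 stayed within 2-fold (median 0.23). RpL23A (1.56, with 3647 RPKM in small and 1051 RPKM in large polysomes), RpS2 (1.10) and RpL13A (1.08) lay above. RpL41, a peptide of very few residues, lay below (-1.08). With the extensive library RpS2 stood at 0.40, RpL13A at 0.47 and RpL41 at 0.28, none of them called. Other short CDSs moved away from expectation: RpL39 went from -0.85 to -2.94 and RpL38 from 0.03 to 2.24. The list then had 2 members above and 3 below, with a median of 0.08. The medians were 0.28 for 43 proteins of the large and 0.13 for 35 of the small subunit. Of 75 mitochondrial ribosomal proteins 4 lay above and 7 below (median 0.06), from mRpL46 (-1.76) to mRpL30 (1.29).

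Nuclear-encoded subunits of oxidative phosphorylation had a median of 0.42, and 24 of 27 lay over 0, but only SdhC lay above (1.17). With the extensive library the median was 0.18, 16 of 27 lay over 0 and SdhC stood at 0.76. The 8 cytochrome c oxidase subunits ranged from 0.18 for CoIV to 0.89 for CoVIII. The ATP synthase subunits ATPsyn-beta and blw went the other way. ATPsyn-beta, with 313 RPKM in small and 1555 RPKM in large polysomes, lay below (-1.36). The alpha subunit blw stood at -0.96 and was not called.

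Initiation factors clustered near expectation, with 2 of 32 below and 0 above. These were eIF4AIII, the helicase of the exon junction complex (23.8 RPKM in small and 130 RPKM in large polysomes, -1.85), and Paip2 (-1.71), which stood at -0.08 with the extensive library. Of 9 elongation and release factors 1 lay below, Ef1alpha100E (-1.01). It stood at 0.98 with the extensive library, where its density of 56.3 RPKM compared with 9.95 RPKM in the initial library.

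Of 15 measured genes with known translational control 4 were above (26.7%, against 14.3% of all CDSs) and 2 below (13.3%, against 11.2%), and 9 stayed within 2-fold (median 0.09). Xbp1, a transcription factor of the unfolded protein response (2R, 17031382 to 17032965), had 1518 RPKM (12495 reads) in small and 536 RPKM (2106 reads) in large polysomes, an adjusted log2 ratio of 2.19 (interval 2.12 to 2.26). crc, the Drosophila ATF4 whose translation is controlled by uORFs, had 220 RPKM in small and 74.1 RPKM in large polysomes (2.11, 1.90 to 2.32). Oda, the ornithine decarboxylase antizyme made by a ribosomal frameshift, had 450 RPKM in small and 139 RPKM in large polysomes (1.46), and msl-2, which Sxl represses in females, had 36.1 RPKM in small and 26.9 RPKM in large polysomes (1.45). All 4 had a higher density in small than in large polysomes. Dsp1 (-1.90) and Cat (-1.28) were the members below. Thor, the eIF4E-binding protein, stood at 0.09 (-1.07 with the extensive library) and InR at 0.51.

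The uORFs of crc and Xbp1 themselves carried footprints. A uORF of crc of 60 nt (2L, 21310883 to 21310942) had 164 RPKM in small and 95.2 RPKM in large polysomes, and the other single-exon uORFs listed for crc were at 0 in both. A uORF of Xbp1 of 108 nt (2R, 17031159 to 17031266) had 642 RPKM in small and 325 RPKM in large polysomes. A uORF of beta4GalNAcTA of 36 nt (2R, 10146615 to 10146650) had 187 RPKM in small and 10.6 RPKM in large polysomes. The large polysome value of beta4GalNAcTA rests on 1 read. A uORF of lkb1 of 66 nt had 49.6 RPKM (18 reads) in small polysomes and 0 in large polysomes. These uORFs were denser in small polysomes, but the uORFs of Pbp49 (18.2 RPKM on 3 reads in small and 63.5 RPKM on 5 reads in large polysomes) and Pop2 (16.5 RPKM on 3 reads in small and 23.1 RPKM on 2 reads in large polysomes) were not, although the main CDSs of both genes lay far above expectation. The single-exon uORFs listed for phr, Sxl, fidipidine and Oda were at 0 in both libraries, and the main CDSs of these genes lay above expectation too.

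Of the signalling pathways, the IMD list had 23.1% above and 15.4% below, against 14.3% and 11.2% of all CDSs. The Toll list had 11.1% above and the insulin and TOR list 10.0%, with 0% below in both. In the IMD pathway, the antibacterial response that S2 cells can mount, PGRP-LA (22.3 RPKM in small and 4.47 RPKM in large polysomes), Iap2 (81.2 RPKM in small and 25.7 RPKM in large polysomes) and the receptor PGRP-LC (37.8 RPKM in small and 26.6 RPKM in large polysomes, 1.44) lay above. The inhibitory receptor PGRP-LF, with 4.26 RPKM in small and 23.7 RPKM in large polysomes, lay below (-1.93, interval -2.51 to -1.35), as did ben (-1.15, and -0.50 with the extensive library), and the median of 13 was 0.21. In the Toll pathway the adaptor tub lay above (1.69), and 8 of 9 were within 2-fold. In insulin and TOR signalling Lst8, a subunit of both TOR complexes (1.89), and the transcription factor foxo (1.10) were above among 20, with foxo at 0.24 with the extensive library. Of the dosage compensation complex, msl-2 and the helicase mle (1.06) lay above among 7, with mle at 0.57 with the extensive library.

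Of 31 cell-cycle genes 3 were above (9.68%, against 14.3% of all CDSs) and 7 below (22.6%, against 11.2%). CycK (211 RPKM in small and 69.0 RPKM in large polysomes, 2.15), CycG (1.24) and CycD (1.03) were above, while the mitotic regulators mad2, borr (-1.48), cdc2 (-1.46), CycA (-1.41) and fzy (-1.22) were below together with Cdk9 and Cdk5. With the extensive library Cdk9 stood at -0.24 and CycA at -0.78. In the replication list CDC45L (1.92), Orc4 (1.68) and Sld5 (1.16) were above, and Mcm6 (-1.25), Psf3 (-1.19) and Mcm7 (-1.19) below. CDC45L stood at 0.94 and Psf3 at -0.60 with the extensive library. Of the ecdysone response, the transcription factors br (1.28) and usp (1.03) were above, and the enzymes ImpL3, Eip71CD (-1.47) and Eip55E (-1.19) were below. The list median of 0.56 was not kept with the extensive library (-0.01), where usp stood at 0.33, ftz-f1 at -0.15 and Eip75B at -0.69.

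Of 27 Mediator subunits 2 were above, MED18 (1.45) and MED22 (1.04), and 6 below (22.2%, against 11.2% of all CDSs). Both MED18 and MED22 reached 10 RPKM in small polysomes only, and so had to differ between the libraries. MED22 stood at 0.52 with the extensive library. Of 21 nucleoporins 4 were below. Of 16 genes of RNA interference 4 were below (Hen1, AGO2, trsn and vig, -1.35 to -1.29) and r2d2 was above (1.01). Hen1 reached 10 RPKM in large polysomes only and r2d2 in small polysomes only. AGO2 stood at -0.05 with the extensive library. Cytochrome P450s had 2 of 15 above, with Cyp6u1 at 2.29, and glutathione S-transferases 2 of 19 above and 5 below (26.3%). Both glutathione S-transferases above reached 10 RPKM in small polysomes only. Dynein and kinesin chains had Klp64D and Klp98A (1.03) above and the dynein light chain ctp (231 RPKM in small and 164 RPKM in large polysomes, -1.54) and Khc (-1.17) below. RNA polymerase subunits had Rpb11 (1.07) above and Rpb7 (-1.19) and RpII33 (-1.17) below. The COPI coat subunits gammaCop (-1.35) and betaCop (-1.08) were below among 9 coat proteins. Tetraspanins had 1 of 9 above, which reached 10 RPKM in small polysomes only, and 2 below. In ER translocation, Sec61gamma and the signal recognition particle receptor Gtp-bp (1.04) were above and Sec61alpha (-1.10) below among 20, so that subunits of one channel lay on opposite sides. At most 1 member in each direction was called among integrins, iron and copper handling, nonsense-mediated decay, Sm and LSm proteins, ubiquitin-like proteins, mitochondrial import, phagocytosis receptors and histones.

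Another 3 lists were drawn up after genes of their kind had been seen far above expectation, and their counts only describe how far the pattern extends. Of 7 measured genes of mitochondrial DNA replication and expression 4 were above, but 3 of these, tam, DNApol-gamma35 and mtDNA-helicase, reached 10 RPKM in small polysomes only and so had to differ between the libraries. With 10 RPKM required in both libraries 3 genes remain, with a median of 0.57. Those above were tam, the catalytic subunit of DNA polymerase gamma (2.76), its accessory subunit DNApol-gamma35 (17.9 RPKM in small and 3.86 RPKM in large polysomes, 2.26), the helicase mtDNA-helicase (19.3 RPKM in small and 6.82 RPKM in large polysomes, 2.28) and the RNA methyltransferase mtTFB1 (1.61). TFAM (0.59), mtTFB2 (-0.22) and the single-stranded DNA binding protein mtSSB (-0.51) stood within 2-fold. The genes tam (13824140 to 13827691) and DNApol-gamma35 (13831489 to 13832628) lie close together on 2L. Among 12 autophagy genes 5 were above, Atg14, Uvrag (2.23), Atg16 (1.33), Atg4 (1.16) and Atg6 (1.09), of which Atg14, Uvrag and Atg6 belong to complexes of the same lipid kinase. Atg5 was below (-1.55, and -0.74 with the extensive library). Of 16 glycosyltransferases 8 were above and 0 below, with a median of 0.99, led by beta4GalNAcTA, alpha4GT1 (2.21) and beta4GalT7 (1.78). Of these 8, 2 reached 10 RPKM in small polysomes only, beta4GalNAcTA among them, and so had to differ between the libraries. The median of the list was 0.80 with 10 RPKM required in both libraries and 0.60 with no minimum.

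Properties that took no part in the choice of CDSs were then set beside the length-adjusted ratio. The number of uORFs listed for a gene (that of the transcript with most) had the widest range of medians among these, apart from the spacing of genes described below. CDSs of genes with no uORF had a median of -0.12 (95% interval -0.16 to -0.07, n = 3232), those with 1 uORF 0.00 (n = 1201), with 2 uORFs 0.18 (n = 576), with 3 to 4 uORFs 0.22 (n = 456), with 5 to 8 uORFs 0.45 (0.28 to 0.55, n = 209) and with 9 or more 0.34 (n = 49). The share of CDSs below expectation was 14.1% with no uORF and 2.39% with 5 to 8, while the share above was 12.6% and 19.1%. The Spearman correlation across 5723 CDSs was 0.16, a description only, since all points share the same 2 libraries. Genes with a uORF of 50 or more RPKM in all polysomes had a median of 0.20 (n = 457), with 14.2% above expectation. The other genes with a uORF listed had a median of 0.11 (n = 2034), with 17.0% above, against 14.3% of all CDSs. The shares below were 5.91% and 7.77%, against 11.2% of all CDSs.

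The order by number of uORFs was examined within classes of CDS length. Between 1000 and 2000 nt, genes with 3 or more uORFs had a median of 0.44 (0.31 to 0.58, n = 237) and genes with none -0.17 (-0.26 to -0.10, n = 1142), and 30.4% and 16.3% were above expectation. Over 2000 nt the medians were 0.27 (n = 384) with 3 or more uORFs and -0.24 (n = 732) with none. Up to 1000 nt no difference could be resolved: the medians were -0.33 (-0.57 to 0.02, n = 93) with 3 or more uORFs and 0.01 (-0.04 to 0.06, n = 1358) with none, and the intervals overlap. With the extensive library the medians were -0.11 and -0.01. With the initial library the share above expectation was 17.2% with 3 or more uORFs and 12.7% with none. The share below was 19.4% and 14.3%. Genes with uORFs had less mRNA. Within the 1431 CDSs of lowest mRNA density the medians were 0.34 (0.23 to 0.47) with 3 or more uORFs and 0.03 (-0.05 to 0.14) with none. Within the 1431 of highest mRNA density they were 0.02 (-0.30 to 0.22, n = 105) and -0.30 (-0.36 to -0.23, n = 945). These last intervals overlap, so no difference could be resolved among the most abundant mRNAs. With the extensive library their medians were -0.13 and -0.31. Of the 15 highest named genes 10 had a uORF listed and of the 15 lowest 6, against 43.5% of all members.

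**Figure D4:**
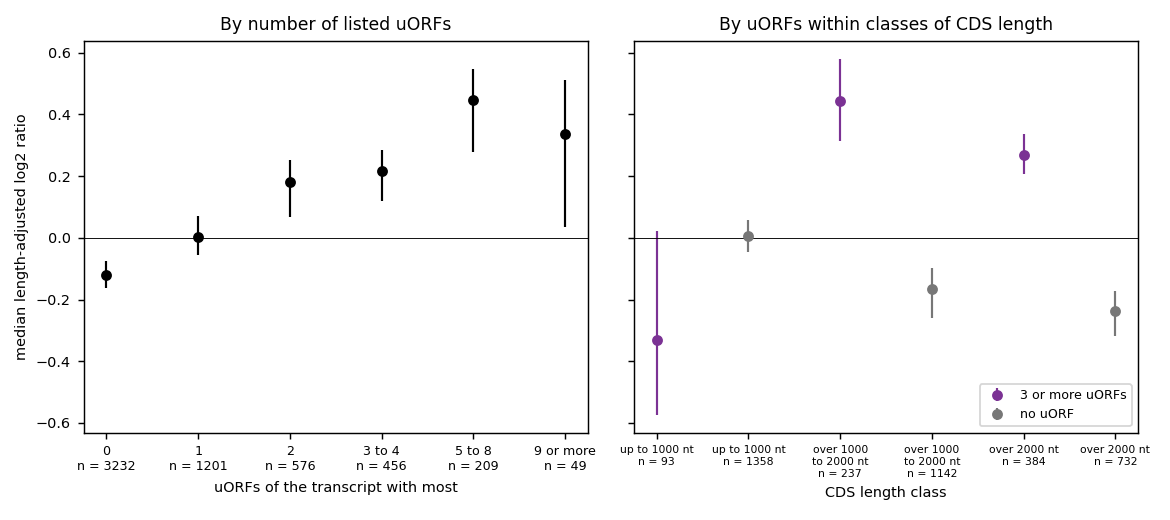
Median length-adjusted log2 ratio with its 95% order-statistic interval, left by the number of uORFs listed for the gene and right for genes with 3 or more uORFs (purple) and none (grey) within 3 classes of CDS length. Medians go from -0.12 with no uORF to 0.45 with 5 to 8; above 1000 nt genes with 3 or more uORFs lie higher than genes with none, and up to 1000 nt the intervals overlap.

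The length-adjusted ratio was lower for abundant mRNAs. From the CDSs of lowest to those of highest total cytoplasmic mRNA density, in 4 classes of equal size, its median was 0.19, 0.08, -0.05 and -0.26, and the share above expectation was 18.6%, 18.7%, 13.8% and 6.01% (Spearman correlation -0.18, a description over the same CDSs). Translational efficiency (TE), footprint over mRNA density, was taken from the all-polysome library, which has no part in the ratio. Over its 4 classes from low to high the median was -0.08, -0.05, 0.03 and 0.08, a narrow range. The number of exon parts of the CDS (medians between -0.09 and 0.06) and the chromosome arm (between -0.15 on 4 and 0.04 on 2R) showed little difference.

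CDSs that begin shortly after another CDS on the same strand formed the class with the highest median. This property was examined after Pbp49 and CG33713 had been seen among the high values. Of 32 CDSs that start less than 100 nt after a neighbour, 15 (46.9%) lay above and 4 (12.5%) below expectation. Their median was 0.98 (0.34 to 1.28), and 0.62 with the extensive library. Among 4825 CDSs with a gap of 1000 nt or more, 13.7% lay above and the median was 0.00. The 15 above include Pbp49 and CG33713 themselves. Of the 15, Shawn, Ppcdc, mkg-p, CG9288, CG33155, CG30100 and CG15386 reached 10 RPKM in small polysomes only. These had to differ between the libraries. Members above include stnB, the second reading frame of the stoned locus (148 RPKM in small and 121 RPKM in large polysomes, 1.33), CG30100 (1.74), CG15386 (2.29, on 2 reads in large polysomes) and CG9865 (1.69).

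For 26 of these CDSs the upstream neighbour was measured as well. The downstream CDS was longer in 18 pairs, with a median of 601.5 nt downstream and 279 nt upstream. Before the adjustment for length the ratios of partners were often similar: 15 of 26 pairs differed by no more than 1 on the log2 scale. The downstream CDS CG33713 had 481 RPKM in small and 79.6 RPKM in large polysomes, and its upstream partner CG33714 484 RPKM in small and 100 RPKM in large polysomes. Gint3 had 70.9 RPKM in small and 46.5 RPKM in large polysomes, and its upstream partner CG42306 97.4 RPKM in small and 69.7 RPKM in large polysomes. Pbp49 and its upstream partner CG42516 had log2 ratios of 2.11 and 2.25. After the adjustment the downstream CDS was higher in 20 of 26 pairs, with medians of 0.98 downstream and -0.55 upstream. Each partner is set against CDSs of its own length, which adds to the difference, but the downstream CDS had the higher ratio in 19 of 26 pairs before the adjustment too (median difference 0.34). CG43954, the lowest CDS known by number among those with 100 or more reads, is an exception. It starts 6 nt after Lasp, and both lay below expectation (-2.56 for CG43954 and -1.09 for Lasp).

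**Figure D5:**
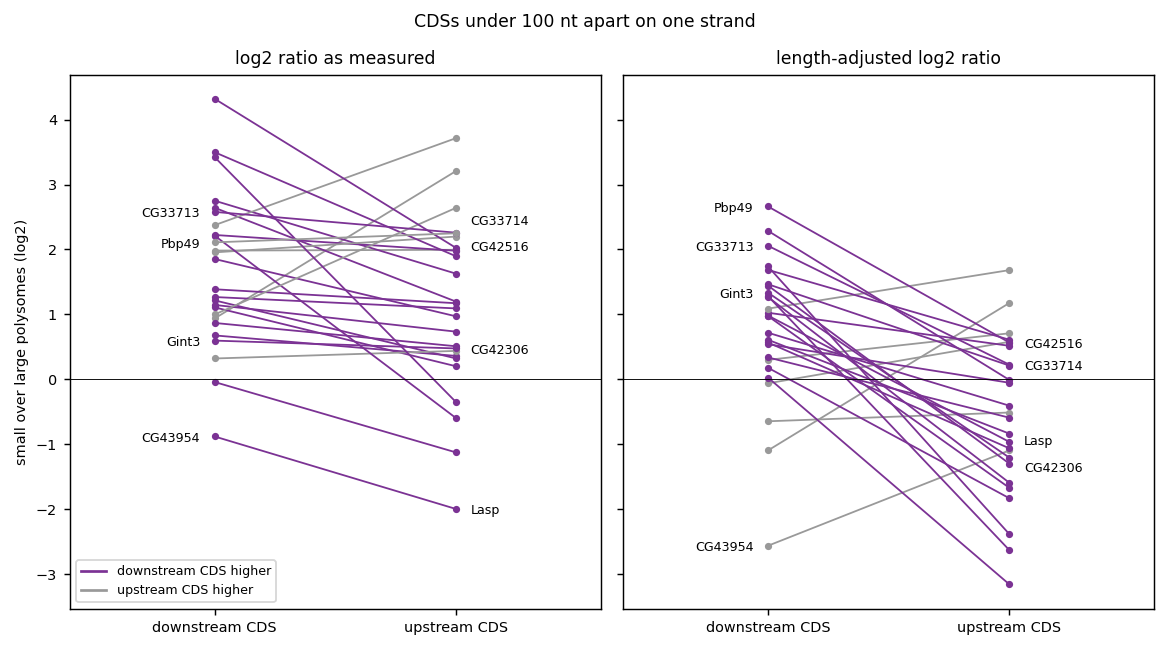
Log2 ratio of small over large polysomes (left) and its length-adjusted value (right) for 26 pairs of CDSs under 100 nt apart on one strand, each line joining the downstream CDS to its upstream partner. Purple lines mark a higher downstream CDS, which is the case in 19 pairs as measured and in 20 pairs after the adjustment for length.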

How the data were processed

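S2 cell libraries were made and aligned by the authors: reads were clipped and trimmed, rRNA and tRNA reads removed with Bowtie, the rest mapped to FlyBase Release 5 with TopHat, and unique matches kept (versions are not given in the sources used here). The authors deposited RPKM per CDS and per uORF, and the fraction of each CDS covered by footprints, which was not used for any call. The longest CDS of each gene was kept, and 125 genes without values were left out. Reads were recovered from the RPKM steps and came out whole (tolerance 0.01) for 100% of CDSs, with divisors of 5498000 reads for small and 2625000 for large polysomes. Counting intervals (95%, exact Clopper-Pearson) take the total reads of a CDS as fixed and cover counting error only; the spread between the small polysome libraries was larger (SD 0.50 against a median counting SD of 0.17).

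Transcripts of uORFs were matched to genes by FlyBase identifier (11021 of 11587). The mRNA values appear to pool 2 libraries. Named genes are the 15 highest and 15 lowest with a symbol and 5 each way with a CG number among CDSs with 100 reads, the 5 densest of each library, and extreme or called members of the lists. The members and lists were chosen with earlier results of these data known, and the 3 added lists, the gap between genes and the division of uORF classes by length and mRNA after seeing values. The procedure was tested on simulated data. Alternatives concern the pseudocount, the filter, the length expectation, the CDS chosen and the small polysome library. No sequences were analysed here. One further gene list is not reported here. Scripts ran under Python 3.11.15 with scipy 1.17.1, pandas 2.3.3, matplotlib 3.10.9 and numpy 2.4.6.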

Additional observations from a re-analysis of the deposited data

How the results depend on the processing

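The counts of 818 CDSs above and 642 below expectation ranged from 518 to 1104 and from 457 to 1151 over 12 alternatives. Beyond 1.5 times lay 518 above with 10 RPKM required in both libraries and 1151 below with no RPKM minimum, which takes in 8139 CDSs. Requiring 10 RPKM in all polysomes instead, an alternative chosen after seeing the data, gave 774 above and 640 below. The median log2 ratio of the shortest and longest bins was 1.84 and -1.02 with a pseudocount of 5 RPKM, 1.80 and -0.95 with no minimum, 2.51 and -0.74 with reads on CDSs as the divisor (a shift of 0.48 that leaves length-adjusted values as they are), and the shortest bin stood at 2.22 with the extensive small library. In list medians, 10 RPKM in both libraries moved the mitochondrial DNA list to 0.57 (3 members left) and joint bins of length and mRNA moved ER chaperones to -0.33. Here the extensive small library is used with the members and the length expectation chosen anew, so values differ slightly from those given beside single genes in the report for the same CDSs and bins. It moved elongation and release factors to 0.069, glycolytic enzymes to -1.34, the Toll pathway to 0.82, the ecdysone response to -0.039, cytochrome P450s to 0.036 and the mitochondrial DNA list to 0.97, and of the named genes it reversed Cyp6a17 (0.036), Ef1alpha100E (0.84), Rab14 (0.0036) and RpL41 (0.25). The causes were not tested. Of 96 named genes at 2-fold or more, 92 kept their sign and 69 stayed at 2-fold or more in every alternative that held them. Of 16 lists with a median of 0.5 or more either way, 14 kept their sign.

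With 1 library per fraction, differences between gradients or library preparations cannot be told apart from differences between fractions. Short CDSs and CDSs with few reads in large polysomes are the least certain. No paired analysis was possible because each group has 1 sample.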
